A study of Mus musculus with 12 samples.

Results

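Cathepsins, legumain and cystatin C are the protein-cutting enzymes of the lysosome and the secreted inhibitor that restrains them. The 10 genes Ctsa, Ctsb, Ctsc, Ctsd, Ctsh, Ctsl, Ctss, Ctsz, Lgmn and Cst3 were taken from the deposited table of 17358 genes by their symbols. All 10 passed the filter on low counts. They were followed in 12 RNA sequencing libraries of mouse brain perivascular macrophages, which line the vessels of the brain: 5 libraries of aged mice (18 months) and 7 of young adult mice (3 months). The strain is given as C57BL with no substrain, and no treatment, transgene, sex or sort marker is stated. The libraries are described as biological replicates, lysed in a single-cell buffer, with no number of animals or cells for any of them. A p-value here therefore reflects only how much these libraries varied. The study asks how expression in these macrophages differs between the ages.

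Macrophages digest what they engulf in acidic endosomes and lysosomes. Most cathepsins are made as inactive precursors, reach these compartments through mannose 6-phosphate receptors and become active as the compartment acidifies. Papain-like cysteine cathepsins (Ctsb, Ctsc, Ctsh, Ctsl, Ctss and Ctsz), the aspartic protease Ctsd, the serine carboxypeptidase Ctsa and the asparaginyl endopeptidase Lgmn divide the work. Cystatin C (Cst3) is secreted and blocks papain-like cathepsins and legumain.

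Library totals lay between 23214836 and 30628787 estimated counts, and the lowest count of any of the 10 genes in a library was 3921. Aged libraries 1, 3 and 4 stood apart on the first principal component (15.5% of the variance), at −76.06, −95.09 and −104.79 against 10.78 to 47.63 for the other 9 libraries, and the members' fold changes are given with and without them. Summed perivascular macrophage markers, all 12 of them in the table and 11 with counts in every library, spanned 10866 to 17387 normalised CPM in aged and 11655 to 21373 in young libraries. Normalised CPM are counts scaled to a library total that was corrected by the trimmed mean of M-values (TMM). Among these markers Mrc1 was at 1609.9 and Pf4 at 2349.5 normalised CPM or above in every library. Siglec1 ran from 34.0 to 74.3 in aged and from 0 (young library 7) to 46.4 in young libraries. The general macrophage gene Csf1r was at 414.7 or above. Of the 10 microglia markers 7 had counts in every library, with sums of 3828 to 5696 in aged and 3615 to 7007 in young libraries. The microglia gene P2ry12 was at 409 or above throughout. By contrast, Tmem119 ran from 0 to 6.81 in aged and from 0 to 64.3 in young libraries. Sall1 was at 0 in aged libraries 1, 2, 3 and 4 and in young libraries 1 and 5. Choroid plexus and ependyma markers summed to 257 to 1314 in aged and 63.2 to 177 normalised CPM in young libraries, without overlap. Of these 8 markers 1 had counts in every library, and most of each sum was Ttr. Ttr ran from 176.3 to 1051.4 in aged and from 55.3 to 146.5 in young libraries. It was the only gene called between the ages (adjusted p = 0.0297 by edgeR). Enpp2 ran from 36.1 to 204.0 in aged and from 0 to 30.6 in young libraries. Kcnj13 ran from 39.1 to 72.9 in aged libraries 1 to 4 and was at 0.0335 in aged library 5. In young libraries Kcnj13 was at most 2.62. Folr1 was at 0 in all libraries except aged library 2, and Otx2 was highest in young library 1 (8.51). The part of these markers in the results below was not tested. In bulk libraries fewer cells of a type and less RNA per cell cannot be told apart.

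Short stretches of the promoters show which of these genes carry the palindrome bound by the lysosomal regulators TFEB and TFE3, and which carry elements of macrophage and interferon regulators. RefSeq windows of GRCm38.p6 covering 250 bases before a start site were held for 8 of the 10 genes, not for Ctsb or Ctsh. Each stretch below has 30 bases, reads 5′ to 3′ along the gene, and has the motif in capitals.
Ctsa, chr2:164833743-164833772, plus strand: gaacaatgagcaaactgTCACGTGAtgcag
Ctsd, chr7:142387908-142387937, minus strand: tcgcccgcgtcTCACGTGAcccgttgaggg
Ctsd, chr7:142388048-142388077, minus strand: tccccCACGTGacctgtatccagtcattct
Lgmn, chr12:102439124-102439153, minus strand: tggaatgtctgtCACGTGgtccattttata
Ctsl, chr13:64370739-64370768, minus strand: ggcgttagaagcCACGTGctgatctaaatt
Ctsc, chr7:88277923-88277952, plus strand: gtcactaactaACTTCCTCaggccacctcg
Ctss, chr3:95526755-95526784, plus strand: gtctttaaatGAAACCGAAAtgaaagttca

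The 8-letter palindrome TCACGTGA was found in Ctsa, 13 to 6 bases before one of its start sites, and in Ctsd, 99 to 92 bases before its RefSeq start. The stretches of Ctsa, Lgmn and Ctsl and the first of Ctsd lie inside the GENCODE span of their gene, since distances are from RefSeq starts and a gene can have several. Among all 32851 windows 0.785% held it, and 1.95% of the 7647 tested genes with a window. The shorter E-box CACGTG, which lies inside that palindrome, was found in Ctsa, Ctsd, Ctsl and Lgmn and in 10.3% of tested genes. The PU box GAGGAAGT, read on either strand, was found in Ctsc (151 to 144 bases before the start; 3.26% of tested genes). An interferon response element, GAAA repeated after a gap of any 2 letters and read on either strand, was found in Ctss, 21 to 12 bases before the start, against 3.64% of tested genes. The motifs were picked after the promoters had been read, and a match is a description of the letters only.

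Levels per transcript length were compared in FPKM, which divides counts by transcript length and library total. Cst3 stood at the top with 32492 ± 5599.6 FPKM in young (SD, n = 7) and 20777 ± 4949.7 in aged libraries (SD, n = 5), and ranked between 2 and 5 among all genes in every library. Ctss, an endopeptidase that also works at neutral pH and trims the MHC class II invariant chain, followed at 6243 ± 702 in young and 5982 ± 792 FPKM in aged libraries. It ranked between 15 and 22 among all genes. Ctsb came next at 2654 ± 464 in young and 1942 ± 848 FPKM in aged libraries, then Lgmn at 1219 ± 113 and 961 ± 337, and Ctsc at 733 ± 76.0 and 613 ± 103.

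The order Cst3, Ctss, Ctsb, Lgmn and Ctsc held in all 12 libraries, although the ranges of Ctsb and Lgmn, and of Lgmn and Ctsc, overlapped across libraries. From Ctsc down the order was not fixed, and Ctsc exceeded Ctsd in 9 libraries. Ctsd, Ctsz, Ctsl and Ctsh had young means of 661, 538, 504 and 423 FPKM, and their ranges overlapped within each age group. Ctsd exceeded Ctsz in 8 libraries and Ctsz exceeded Ctsl in 5. Ctsa was the lowest of the 10 by its mean, at 220 ± 54.3 in young and 127 ± 93.7 FPKM in aged libraries, and lay below Ctsh in all 12.

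**Figure D1:**
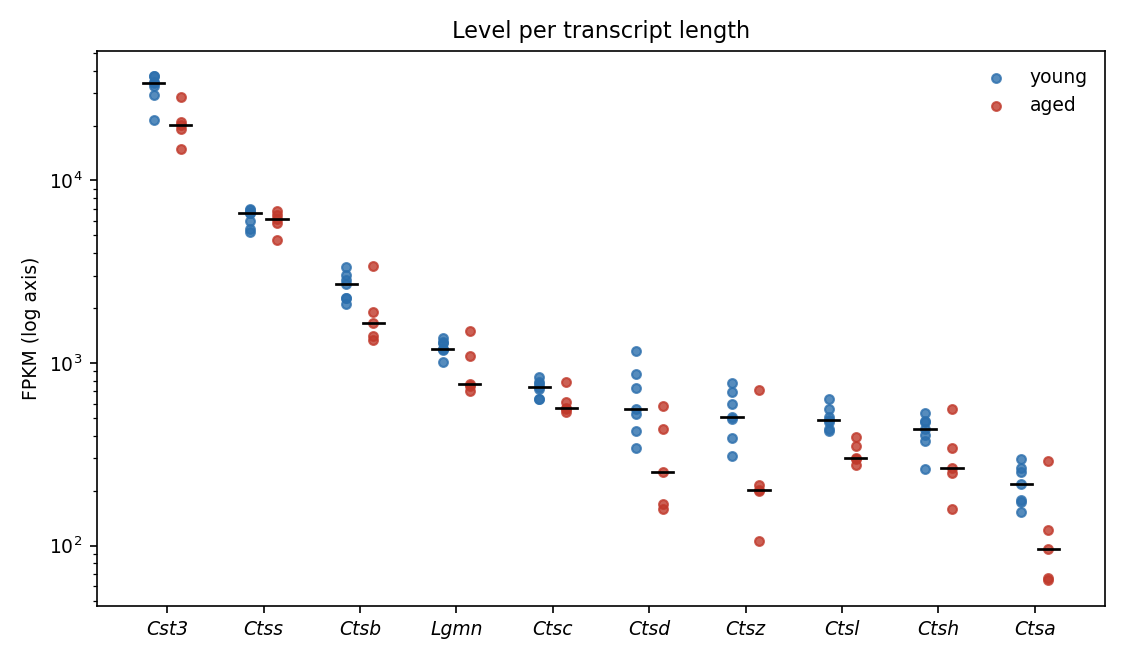
FPKM of each gene on a log axis, with 1 point per library (blue young, red aged) and a black bar at the group median. Cst3 and Ctss lie above all other members in every library, and the ranges of Ctsd, Ctsz, Ctsl and Ctsh overlap.

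Ctss had the highest FPKM of the 6 cysteine cathepsins in every library. Its share of the summed FPKM of Ctsb, Ctsc, Ctsh, Ctsl, Ctss and Ctsz was 68.6%, 53.8%, 69.1%, 64.1% and 64.1% in aged libraries 1 to 5. In young libraries it ran from 48.3% over a median of 56.6% to 62.7%. Aged library 2 lay within the young range and the other aged libraries lay above it. The ratio of Cst3 to that sum was 2.24, 2.27, 1.69, 2.61 and 2.21 in aged libraries 1 to 5, and in young libraries it ran from 2.03 over a median of 2.96 to 3.38. The groups overlapped, with the young library 4 ratio below 4 of the aged ones.

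Between the ages, 9 of the 10 genes had lower fitted levels in aged libraries, but none passed the test. The median log2 fold change was −0.42, against −0.01 over all 9550 tested genes. Without aged libraries 1, 3 and 4 it was −0.10 against −0.09, with 8 of 10 below 0. Fold changes below 0 were found in 50.5% of all tested genes, and in 38.2% of the 262 tested genes at least as abundant as the least abundant member. By the edgeR quasi-likelihood test with Benjamini-Hochberg adjustment over all tested genes 0 of 10 passed (background 0.0105% in either direction and 0% lower), and limma with voom also called 0. DESeq2 called 0 of 10 where it called 2.17% of its genes lower (0.612% on the genes edgeR tested), and edgeR with legacy=FALSE 0 of 10 against 0.0209%. At an unadjusted p under 0.05 there were 4, Ctsd, Cst3, Ctsl and Ctsa, all lower in aged libraries, where 2.12% of all tested genes were. No member separated the groups completely on normalised CPM, as 0.272% of all tested genes did with lower aged levels.

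**Figure D2:**
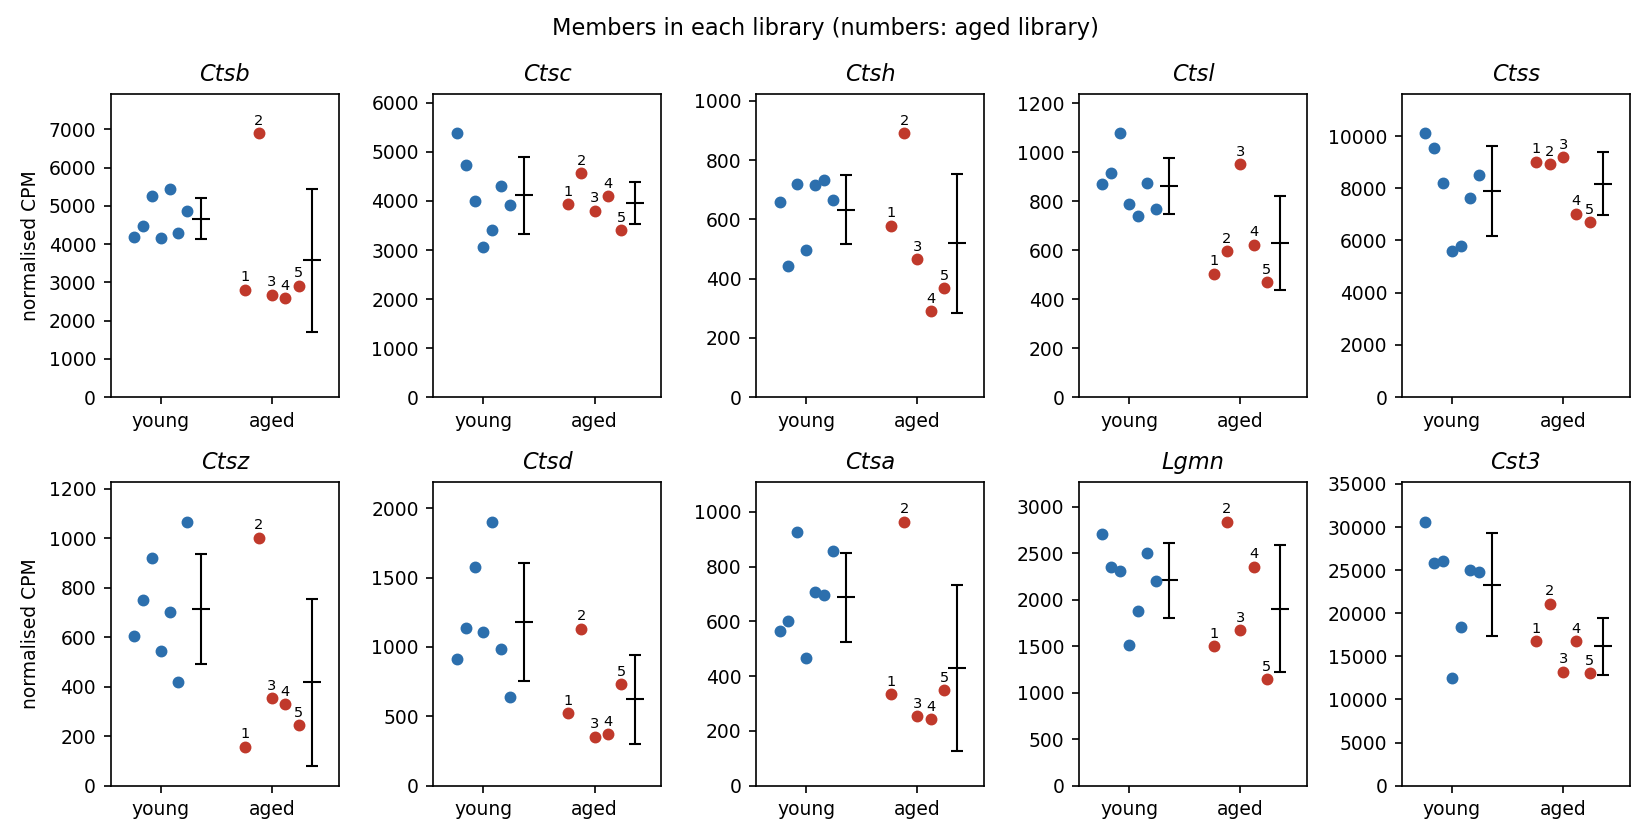
Normalised CPM of each gene, with 1 point per library (blue young, red aged with the library number) and the mean ± SD in black. Aged library 2 lies above the other aged libraries for Ctsb, Ctsz, Ctsa, Ctsd, Ctsh, Lgmn, Ctsc and Cst3. It lies above the whole young range for Ctsb, Ctsa, Ctsh and Lgmn and within it for Ctsz, Ctsd, Ctsc and Cst3.

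Ctsb, which cuts proteins internally and also removes dipeptides from their ends, was at 2810.2, 6905, 2677, 2581 and 2911 normalised CPM in aged libraries 1 to 5. The young range was 4153 to 5452 with a median of 4468. Thus 4 aged libraries lay below every young library and aged library 2 lay above every one. The log2 fold change was −0.38 ± 0.24 (SE, adjusted p = 0.999 by edgeR). Without aged library 2 it was −0.76 (adjusted p = 0.0270 by edgeR).

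Ctsz, a carboxypeptidase that removes single residues, was at 158, 1002, 353, 328 and 243 normalised CPM in aged libraries 1 to 5. Young libraries ran from 419 over 702 to 1066, so the same pattern held: aged libraries 1, 3, 4 and 5 were below all young ones and aged library 2 was near the top of the young range. The log2 fold change was −0.78 ± 0.38 (SE, adjusted p = 0.848 by edgeR), and −1.40 without aged library 2 (adjusted p = 0.0330).

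Ctsa, which trims peptides and protects beta-galactosidase and neuraminidase 1 in a complex, was at 335, 964, 254, 244 and 349 normalised CPM in aged libraries 1 to 5. The 7 young libraries spanned 465 to 928 with a median of 696. Again 4 aged libraries lay below and aged library 2 above the young range. Its log2 fold change was −0.68 ± 0.32 (SE, adjusted p = 0.835 by edgeR), and −1.22 without aged library 2 (adjusted p = 0.0213).

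Without aged library 2, Ctsb, Ctsz and Ctsa were thus called as lower, 3 of 10, where 0.141% of the genes tested in that fit were. The library left out is the one with the outlying high values of these 3 genes, so these calls are a description of the other 11 libraries. Over all alternatives the adjusted p ranged from 0.0270 to 1.0 for Ctsb, from 0.0330 to 1.0 for Ctsz and from 0.0213 to 1.0 for Ctsa. Without aged libraries 1, 3 and 4 the log2 fold changes were 0.08 for Ctsb, −0.19 for Ctsz and −0.06 for Ctsa. That fit keeps aged libraries 2 and 5, of which aged library 5 lay below all young libraries for each of the 3 genes.

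Ctsd, the main aspartic endopeptidase of the lysosome, had the lowest fold change of the 10 in the fit of all 12 libraries. Ctsz was lower than Ctsd without aged library 2, with voom and on the FPKM scale, and Ctsl was lowest without aged libraries 1, 3 and 4. Its normalised CPM were 521, 1132, 354, 373 and 734 in aged libraries 1 to 5, and young libraries ran from 638 over 1111 to 1904. Aged libraries 1, 3 and 4 lay below all young ones, while aged libraries 2 and 5 lay inside the young range. The log2 fold change was −0.92 ± 0.32 (SE, adjusted p = 0.468 by edgeR), −1.25 without aged library 2 (adjusted p = 0.0769, range over all alternatives 0.0769 to 1.0) and −0.34 without aged libraries 1, 3 and 4.

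Cst3 was at 16727, 21126, 13237, 16798 and 13063 normalised CPM in aged libraries 1 to 5. Among young libraries it ran from 12444 over 25002 to 30630.5. Of the 7 young libraries 5 lay above every aged one, and young library 4 lay below every aged one. In the fit its log2 fold change was −0.53 ± 0.22 (SE, adjusted p = 0.660 by edgeR). It stayed between −0.65 and −0.45 over the 25 alternatives, and without aged libraries 1, 3 and 4 it was −0.45. Cst3 is also known as an abundant transcript of choroid plexus, whose summed markers, mostly Ttr, were higher in aged libraries, as given above. The part of choroid plexus RNA in the Cst3 levels was not tested.

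Ctsl, an endopeptidase that takes part in invariant chain processing and in autophagic breakdown, was at 504, 596, 951, 624 and 469.8 normalised CPM in aged libraries 1 to 5. Young libraries ran from 742 over 869 to 1079. Aged library 3 was inside the young range and the other aged libraries below it. The log2 fold change was −0.46 ± 0.20 (SE, adjusted p = 0.774 by edgeR) and −0.70 without aged libraries 1, 3 and 4. Ctsl therefore differed from Ctsb, Ctsz and Ctsa in its highest aged library. On the FPKM scale Ctsl was at 275, 352, 395, 300.2 and 299 in aged libraries and at 426 or above in every young library. It was the 1 member of 10 whose groups did not overlap in FPKM, as did 0.482% of all tested genes with lower aged values. FPKM rest on library totals without TMM factors. Scaled by library totals only, Ctsl was at most 819 CPM in aged and at least 767 in young libraries, so the groups still overlapped. The transcript length implied by count and FPKM was 2073 bases in aged library 3 and 1645 to 1829 in the others. The log2 difference in FPKM, with 1 added, was −0.63 (adjusted p = 0.238 by limma, range over all alternatives 0.171 to 1.0).

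**Figure D3:**
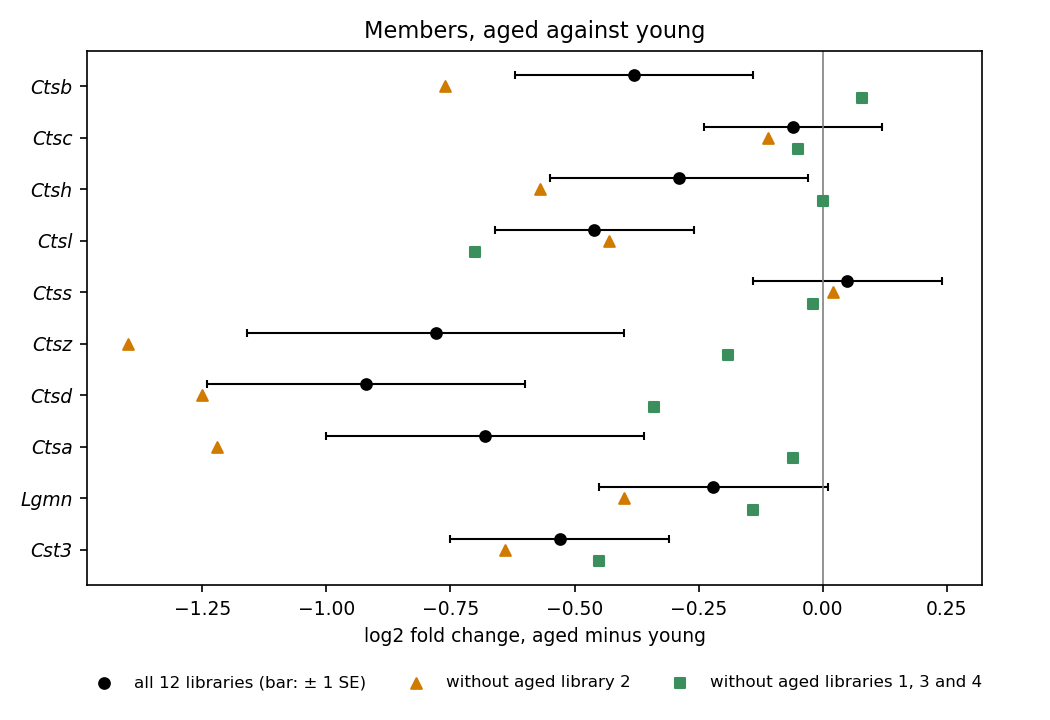
Log2 fold change of each gene, aged minus young, from edgeR with all 12 libraries (black, bar ± 1 SE), without aged library 2 (orange triangles) and without aged libraries 1, 3 and 4 (green squares). Ctsb, Ctsz, Ctsd and Ctsa shift most between the fits, while Cst3 and Ctsl stay below −0.4 in all 3.

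Ctsh, an aminopeptidase, was at 579, 891, 465, 290.4 and 368 normalised CPM in aged libraries 1 to 5 and ran from 441 over 667 to 733 in young ones. Aged library 2 was the highest of all 12 libraries, and aged libraries 4 and 5 were below all young ones. For Ctsh the log2 fold change was −0.29 ± 0.26 (SE, adjusted p = 0.999 by edgeR), −0.57 without aged library 2, −0.14 without aged library 4 and 0.00 without aged libraries 1, 3 and 4.

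Lgmn, which cuts after asparagine and matures several cathepsins, was at 1499.6, 2840.4, 1672, 2357 and 1148 normalised CPM in aged libraries 1 to 5. Young libraries ran from 1509.7 over 2309.8 to 2711. Aged library 2 was again the highest of all 12, and aged libraries 1 and 5 were the lowest. Its log2 fold change was −0.22 ± 0.23 (SE, adjusted p = 0.999 by edgeR), −0.40 without aged library 2, −0.10 without aged library 5 and −0.14 without aged libraries 1, 3 and 4.

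The remaining 2 genes had fold changes close to 0. Ctsc, a dipeptidyl peptidase that activates serine proteases of granules, was at 3929, 4562, 3799.5, 4103 and 3404 normalised CPM in aged libraries 1 to 5. Young libraries ran from 3066 over 4003 to 5383, a range that holds every aged value. The fitted log2 fold change was −0.06 ± 0.18 (SE, adjusted p = 0.999 by edgeR), and −0.05 without aged libraries 1, 3 and 4. Ctss was at 9025, 8922, 9200.2, 7028 and 6699 normalised CPM in aged libraries 1 to 5, all within the young range of 5598 over 8201 to 10113. Its log2 fold change was 0.05 ± 0.19 (SE, adjusted p = 0.999 by edgeR), and its sign turned under some scalings and with single libraries left out.

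Read by library, the mean of the 10 genes was below the young range in 4 of the 5 aged libraries, although single genes such as Ctss and Ctsc were not. This mean log2 level relative to the young mean was −0.66, 0.23, −0.61, −0.69 and −0.75 in aged libraries 1 to 5, and ran from −0.37 over 0.04 to 0.25 in young libraries. Aged library 2 held the highest value of all 12 libraries for 4 genes, Ctsb, Ctsh, Ctsa and Lgmn. Aged library 5 was among the lowest 3 libraries for 7 of the 10. Together the 10 genes took 3.35%, 4.76%, 2.84%, 3.03% and 3.30% of all counts in aged libraries 1 to 5, and from 3.74% over 4.77% to 5.29% in young libraries. Of the aged libraries, library 2 alone reached the young range, whose lowest value was that of young library 4. The number of genes with at least 5 counts was 8013, 9429, 8229, 8099 and 9470 in aged libraries 1 to 5 and 8050 to 10266 in young ones. Its part in these levels was not tested.

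Within the 7 young libraries 4 of the genes, Cst3, Lgmn, Ctsc and Ctss, varied together on the TMM scale. Of 45 pairs, 35 had a positive Pearson r on log2(normalised CPM + 1), and 5 passed an exact two-sided permutation test with Benjamini-Hochberg adjustment over the 45 pairs. All 5 were among these 4 genes. Cst3 and Lgmn had r = 0.98 (Spearman rho 0.86, exact p = 0.00238 for r and 0.0238 for rho, adjusted p = 0.0312 and 0.214, and r = 0.80 without the 2 libraries farthest from the Lgmn median). Ctsc and Lgmn had r = 0.93 (rho 0.96, exact p = 0.00198 and 0.00278, adjusted p = 0.0312 and 0.125, and r = 0.85 without 2 libraries). Ctsc and Ctss had r = 0.93 (rho 0.86, exact p = 0.00437 and 0.0238, adjusted p = 0.0393 and 0.214, and r = 0.86 without 2 libraries). Ctss and Cst3 had r = 0.91 (rho 0.82, exact p = 0.00159 and 0.0341, adjusted p = 0.0312 and 0.256, and r = 0.75 without 2 libraries), and Ctsc and Cst3 had r = 0.90 (rho 0.89, exact p = 0.00278 and 0.0123, adjusted p = 0.0312 and 0.214, and r = 0.81 without 2 libraries). The sixth pair, Ctss and Lgmn, did not pass (r = 0.88, exact p = 0.00873, adjusted p = 0.0655) and had r = 0.42 without 2 libraries. Ctsb with Ctsa had r = 0.75 (rho 0.86, exact p = 0.0558 and 0.0238, adjusted p = 0.358 and 0.214, and r = 0.84 without 2 libraries), and did not pass.

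The pair values depended on the scaling. With library totals in place of TMM factors none of the 45 pairs passed: Cst3 and Lgmn had r = 0.91 (exact p = 0.00992, adjusted p = 0.395) and Ctsc and Lgmn r = 0.67. On that scale Ctsb and Ctsc had r = −0.80, against −0.31 with TMM factors. No pair passed by Spearman's rho either. TMM factors were 0.886 in young library 1 and 1.25 in young library 4. Among the young these libraries had the highest and the lowest Cst3, Lgmn, Ctsc and Ctss on the TMM scale. The summed perivascular macrophage markers were also highest in young library 1 and lowest in young library 4 (21373 and 11655 normalised CPM). Their part in these correlations was not tested.

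**Figure D4:**
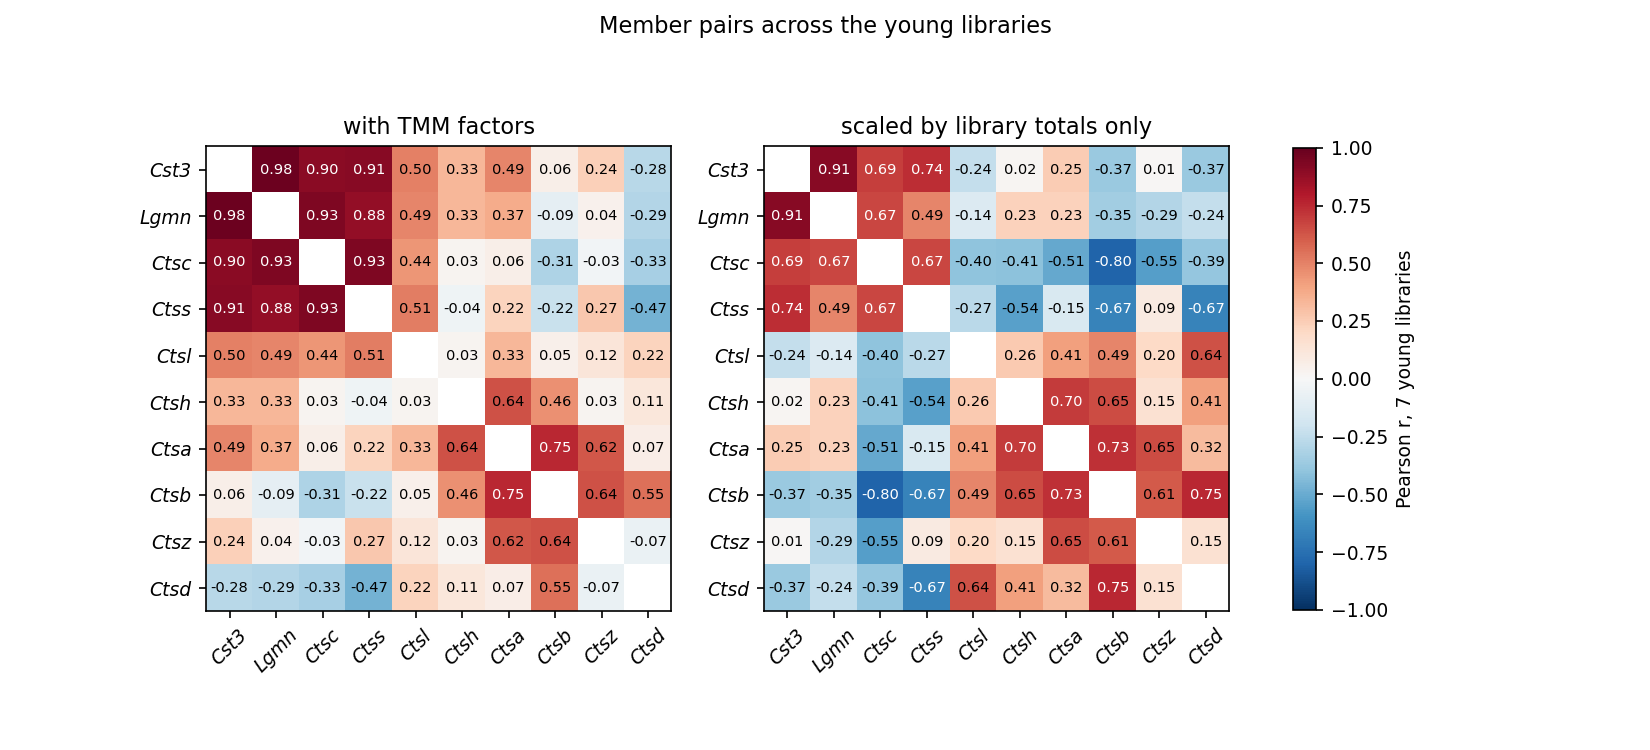
Pearson r for each pair of genes over the 7 young libraries, on log2(CPM + 1) with TMM factors (left) and scaled by library totals only (right), on a colour scale from −1 to 1. Cst3, Lgmn, Ctsc and Ctss form a block of r from 0.88 to 0.98 on the left and from 0.49 to 0.91 on the right.

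Over all 12 libraries the pattern most like the mean of the 10 genes was that of Apoe, the lipid carrier, with Pearson r = 0.945 (Spearman rho 0.860). Apoe ran from 10498 to 32526 normalised CPM in aged and from 15453.5 to 32617 in young libraries. Its r was 0.97 over the 7 young libraries alone and 0.97 without aged libraries 1, 3 and 4. Fcrls, an Fc receptor-like gene of microglia, came next with r = 0.942 over 12 libraries, 0.73 over the young and 0.91 without aged libraries 1, 3 and 4. Tsr2, Gstt2 and Galnt4 followed with r = 0.941, 0.938 and 0.936. Over the 7 young libraries alone their r was 0.76, 0.51 and 0.55. These 3 were at 0 normalised CPM in at least 1 aged library and at most 50.5 in any library. The r values describe likeness, and the libraries share the TMM scaling and the age groups.

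Genes that act with these proteases were followed as 6 lists of 37 genes, of which 24 were tested, in the fit of all 12 libraries only. None of the 24 passed, 15 had negative and 9 positive log2 fold changes. Among other cathepsins Ctso was at 142 ± 42.7 normalised CPM in aged (SD, n = 5) and 97.1 ± 53.5 in young libraries (SD, n = 7). Ctsf was at 20.8 ± 10.9 in aged and 36.4 ± 26.9 in young libraries, with 0.0370 in young library 1. Among other protease inhibitors, the cytosolic cystatin B gene Cstb was at 604 ± 243 in aged and 472 ± 142 normalised CPM in young libraries. Its log2 fold change, 0.36 ± 0.28 (SE), was opposite in sign to that of Cst3. The serpin gene Serpinb6a was at 180.0 ± 97.1 in aged and 221 ± 88.0 in young libraries.

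Among other lysosomal peptidases 2 of 4 tested genes had negative fold changes. The serine carboxypeptidase gene Scpep1 was at 150.1 ± 63.7 in aged and 219 ± 85.4 normalised CPM in young libraries, and Prcp at 122 ± 32.8 and 109 ± 47.9. Genes for sorting and maturation of lysosomal enzymes had 5 negative of 7 tested. Sort1, a sorting receptor, was at 6.14 ± 6.77 against 16.9 ± 14.5 normalised CPM, aged against young. Nagpa, which uncovers the mannose 6-phosphate tag, was at 2.01 ± 4.42 against 9.64 ± 11.8, and 0 in some libraries of both groups.

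Of the partners and substrates, 4 of 4 tested genes had negative fold changes (median −0.60). Unc93b1, the chaperone of endosomal Toll-like receptors that cathepsins process, was at 76.4 ± 53.6 in aged and 137 ± 47.8 normalised CPM in young libraries (log2 fold change −0.84 ± 0.42, SE, adjusted p = 0.893 by edgeR). Neu1, the neuraminidase protected by Ctsa, was at 20.9 ± 21.5 and 44.6 ± 24.5. The transcription factors of lysosomal genes went the other way in 3 of 4 (median 0.28). Tfeb was the exception, at 2.37 ± 2.30 in aged and 4.43 ± 2.75 normalised CPM in young libraries (log2 fold change −0.90 ± 1.73, SE). Tfe3 was at 33.2 ± 24.1 in aged and 30.7 ± 31.8 in young libraries (0.11 ± 0.75, SE). Mitf was at 73.3 ± 42.0 in aged and 24.9 ± 14.4 normalised CPM in young libraries (log2 fold change 1.56 ± 0.75, SE, adjusted p = 0.845 by edgeR), and Tfec at 67.2 ± 32.8 and 49.5 ± 17.9. Both overlapped between the groups, and Mitf was at 0.185 in young library 1.

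By position in GRCm38 (GENCODE M21), 7 of the 10 genes share part of their span with another annotated gene, and the library chemistry does not mark strand. Ctsb (chromosome 14, 63122462 to 63145923, plus strand) overlaps Fdft1. Ctsa (chromosome 2, 164832873 to 164841032, plus) overlaps Neurl2 and Pltp. Ctsz (chromosome 2, 174427493 to 174439039, minus) overlaps Nelfcd, all on the opposite strand. Ctsd (chromosome 7, 142375911 to 142388038, minus) overlaps the gene model Gm49369 on its own strand, and Ctsc, Ctsl and Ctss overlap noncoding genes or pseudogenes. These overlaps are of whole gene spans, and whether exons are shared was not examined. Where exons are shared, reads may not be told apart, so levels of these 7 may be uncertain to that extent. Cst3 (chromosome 2, 148871722 to 148875692, minus), Lgmn (chromosome 12, 102394084 to 102439813, minus) and Ctsh (chromosome 9, 90054152 to 90076089, plus) overlap no other annotated gene.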

How the data were processed

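The authors deposited 1 table with estimated counts per gene, mostly whole numbers, and with values of no named unit. These values are read here as FPKM deposited by the authors. With count and library total they imply transcript lengths that were nearly constant between libraries for most members. For Ctsb, Ctsc and Ctsl the highest implied length was 1.25, 1.23 and 1.26 times the lowest. The submitters' processing notes name RSEM 1.2.12, DESeq2 1.4.5, HISAT2 2.0.4 and Bowtie2 2.2.5 with GRCm38 (mm10) but assign them no roles and name no annotation. Per the labels' protocols, SMART-seq2 cDNA was made into libraries with Nextera XT, and no molecular identifiers are mentioned, so amplified copies may be counted as separate reads. Symbols were repaired through Entrez identifiers with RefSeq, which matched 17244 of 17358. No column of other samples was present.

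Estimated counts were rounded and tested with edgeR 4.0.16 in R 4.3.3: TMM factors, filterByExpr, quasi-likelihood with legacy=TRUE and robust estimation, and Benjamini-Hochberg adjustment over all 9550 tested genes at 0.05. SE were derived from the F statistic. DESeq2 1.42.0, limma 3.58.1 and the other fits were alternatives. The test was checked on simulated data. Pearson and Spearman permutation tests ran over all orders of the 7 young libraries. Libraries with shared replicate numbers did not deviate together (correlations from −0.04 to 0.09), so no block was used. Members and lists were chosen with earlier results of these data known. Named beyond the members were, per list, all genes past the threshold and the 2 with the smallest p, and the 5 genes with the highest Pearson r to the member mean. Tfeb, Tfe3, Cd74, Glb1 and some untested genes of the lists were named in addition. Cst6 and Stfa1 were not analysed here.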

Additional observations from a re-analysis of the deposited data

Results flagged for a closer look

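In 3 of 20 groups tested (10 genes in each age group), 1 library lay far from the others of its group, where chance gives about 1 in 20. All 3 were the highest value of aged library 2, in genes that vary together, so the 3 are not independent and are not set against that rate. Ctsb was at 6905 normalised CPM there and at most 2911 in the other aged libraries. Ctsa was at 964 and at most 349 in the others. Ctsz was at 1002 and at most 353 in the others. The cause was not tested.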

How the results depend on the processing

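The number of genes called between the ages, 1 in all, was 3 with library totals only, 13 without the filter on low counts, 38 with legacy=FALSE, 393 with DESeq2, 121 with DESeq2 on the genes edgeR tested (chosen after seeing the data), 2 with voom, 6 on log2(FPKM + 1) and 0 on log2(FPKM + 0.1). It was 0 with the replicate block, 0 over the libraries numbered 1 to 5 without the block, which holds fewer samples, 0 without aged libraries 1, 3 and 4, and 0 to 75 over single libraries left out. The replicate numbers share only a number, and no library correlated best with its own number. The number of members called was 0 to 3 over single libraries left out, with 3 only without aged library 2, and 0 elsewhere. Leaving out aged libraries 1, 3 and 4 turned Ctsb to 0.08 and Ctss to −0.02 on the log2 scale. Ctss also turned to −0.06 with library totals, −0.06 on log2(FPKM + 1) and −0.06 on log2(FPKM + 0.1), and ran from −0.02 to 0.09 over single libraries left out. Library totals moved the median of all tested genes to −0.13, and relative to it Ctss was at 0.08 and the other members between −0.91 and −0.03. On log2(FPKM + 1) that median was −0.17. The median of the members ran from −0.60 to −0.36 over single libraries left out and was −0.10 without aged libraries 1, 3 and 4. The cause of these shifts was not tested.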

Other observations

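Among other cathepsins, Ctsk, the collagen-degrading cathepsin known from osteoclasts, had no count in any aged library and ran from 0 to 7.42 normalised CPM in young libraries. Ctse, an aspartic endosomal protease, was at most 0.527 in aged libraries and reached 16.8 in 1 young library, with a young median of 0.171. Ctsg and Ctsw, known from neutrophils and from cytotoxic lymphocytes, were at most 0.335 and 0.202 normalised CPM in any library. Igf2r, the large mannose 6-phosphate receptor, was at most 2.63. None of the 5 passed the filter on low counts, so none was tested.

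The transcript length implied by count and FPKM varied between libraries for 3 of the 10 genes, from 1576 to 1971 bases for Ctsb, from 5251 to 6449 for Ctsc and from 1645 to 2073 for Ctsl. For the other 7 the highest was at most 1.07 times the lowest. The implied length of Ctsb was 1716 ± 157 bases in aged (SD, n = 5) and 1831 ± 78.3 in young libraries (SD, n = 7), and that of Ctsc 6153 ± 345 and 5746 ± 339.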
